A study of Homo sapiens with 4 samples.

Results

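The FGF receptor genes, a pair of their ligand genes and their feedback genes were examined in ATAC-seq peak lists of human pancreatic progenitors. The genes were the receptors FGFR1, FGFR2, FGFR3 and FGFR4, the ligands FGF7 and FGF10, and the feedback inhibitors SPRY1, SPRY2, SPRY4 and DUSP6. The peaks of the 4 lists were merged wherever they shared 1 bp or more, and every merged region that touched one of these genes (GENCODE release 44) or the 20 kb on either side of it was kept. This gave 88 of 164301 regions. The cells were progenitors derived from MEL1, an established human embryonic stem cell line that the methods give as MEL1 INS GFP/W, with a GFP reporter at the insulin gene in both groups. They were grown for 7 days in EF6 (the DMSO group) or in EF6I, the same medium with I-BET151 at 1 μM. Both groups received EGF at 50 ng/ml, bFGF at 10 ng/ml, a TGF-β receptor inhibitor at 10 μM and B27, so an FGF receptor ligand was supplied to the control cells too. Each group had 2 libraries of 50000 cells, all from 1 cell line. Nothing in the labels says that the replicates were separate differentiations, so p-values measure the spread between these libraries, which may be technical.

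FGF ligands bind receptor tyrosine kinases on the cell surface, which signal through FRS2, RAS and ERK. ERK signaling switches on genes that hold it back, among them the Sprouty genes and DUSP6, a phosphatase that removes the activating phosphates from ERK. In the embryonic pancreas, FGF10 made by the mesenchyme keeps the epithelial progenitors dividing through the epithelial form of FGFR2, to which FGF7 also binds. I-BET151 blocks the bromodomains with which BET proteins bind acetylated histones. In ATAC-seq, the Tn5 transposase inserts adapters into open chromatin, so that peaks of reads mark accessible DNA.

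The sequences shown here are those of the regions on which the results turn. Each is the 201-base window of hg38, plus strand, centred on the summit of the highest peak of the region. Capitals mark the letters of a motif searched for, and a window without capitals held none of the 10 motifs. The first 3 are the FGFR3 regions whose rank rose with I-BET151, and the FGFR3 promoter window is given for contrast.
FGFR3, 15.0 kb upstream, chr4:1778156-1778356, a TEAD motif in capitals: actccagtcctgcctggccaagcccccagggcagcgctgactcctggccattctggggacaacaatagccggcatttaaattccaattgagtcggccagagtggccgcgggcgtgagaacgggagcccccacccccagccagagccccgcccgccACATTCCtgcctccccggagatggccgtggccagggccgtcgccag
FGFR3, 7.9 kb upstream, chr4:1785287-1785487, an RBPJ motif in capitals: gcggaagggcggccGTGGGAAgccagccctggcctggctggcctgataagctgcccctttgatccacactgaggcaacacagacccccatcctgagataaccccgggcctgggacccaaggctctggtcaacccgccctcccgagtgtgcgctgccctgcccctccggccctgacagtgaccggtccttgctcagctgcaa
FGFR3, 16.8 kb from the start, chr4:1810008-1810208: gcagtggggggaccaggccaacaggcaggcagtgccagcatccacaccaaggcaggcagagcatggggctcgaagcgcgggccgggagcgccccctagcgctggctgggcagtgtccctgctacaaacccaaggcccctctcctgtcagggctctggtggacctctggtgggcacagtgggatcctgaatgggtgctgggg
FGFR3 promoter, chr4:1793092-1793292: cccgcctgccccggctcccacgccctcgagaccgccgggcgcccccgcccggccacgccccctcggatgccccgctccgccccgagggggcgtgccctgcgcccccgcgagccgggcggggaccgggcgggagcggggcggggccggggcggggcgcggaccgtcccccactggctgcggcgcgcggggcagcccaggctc

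The next window is the FGF7 promoter, the one promoter of the 10 genes called with I-BET151 only. The last 3 are the lost regions, all at feedback genes, where lost means that each DMSO list held the region and no I-BET151 list did. Regions called in a single DMSO list are not shown.
FGF7 promoter, chr15:49423116-49423316, a PDX1 motif in capitals: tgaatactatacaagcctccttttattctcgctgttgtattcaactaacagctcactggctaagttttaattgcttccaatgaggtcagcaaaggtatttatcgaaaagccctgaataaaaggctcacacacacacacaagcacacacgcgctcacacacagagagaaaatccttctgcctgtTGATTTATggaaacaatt
SPRY1, 23.6 kb from the start, chr4:123420277-123420477, a SOX motif in capitals: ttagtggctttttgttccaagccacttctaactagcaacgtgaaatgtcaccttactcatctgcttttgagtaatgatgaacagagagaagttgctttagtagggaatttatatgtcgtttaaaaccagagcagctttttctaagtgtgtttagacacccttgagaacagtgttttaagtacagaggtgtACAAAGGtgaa
SPRY2 exon 2, chr13:80336930-80337130: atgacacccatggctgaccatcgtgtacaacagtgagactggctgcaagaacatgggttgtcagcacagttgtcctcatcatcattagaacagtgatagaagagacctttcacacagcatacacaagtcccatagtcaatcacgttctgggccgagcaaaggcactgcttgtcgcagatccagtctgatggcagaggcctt
DUSP6, 18.4 kb from the start, chr12:89333992-89334192: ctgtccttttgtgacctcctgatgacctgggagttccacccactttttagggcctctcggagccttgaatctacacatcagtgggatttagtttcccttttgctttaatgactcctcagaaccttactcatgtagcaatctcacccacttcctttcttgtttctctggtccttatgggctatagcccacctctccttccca

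The libraries differed in more than the treatment. From the genome-wide background, depth was put at 38.7 and 36.6 M reads with DMSO and at 12.5 and 16 M with I-BET151, whereas the median fold enrichment of the peaks was 3.88 and 4.08 with DMSO and 5.56 and 6.03 with I-BET151. Fold enrichment is the ratio of the reads at the summit to the local background, with 1 added to each. Between 38295 and 111324 peaks were called per list, the fewest in DMSO replicate 2. Values are therefore given as fold enrichment and as a percentile, the rank of a region by fold among all regions of its own list, with 0 for a region not called. Depth and enrichment differ between the groups and cannot be told apart from the treatment. A call is a statement on 1 list and its threshold, and in bulk libraries, fewer cells with an open site and a less open site in every cell cannot be told apart. Of the promoters of 9 pancreatic progenitor markers, 7 to 9 were called in each list, and none of those of 5 pluripotency markers was called. The PDX1 promoter was called in both I-BET151 lists but in neither DMSO list. Of 4 liver and 4 acinar markers, 1 promoter each (APOA1 and CPA1) was called in every list. Of 5 endocrine markers, 0 to 2 promoters were called per list.

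At these loci gained regions outnumbered lost ones, as they did over the genome. Of the 88 regions, 45 and 27 (51.1% and 30.7%) were called in the DMSO lists (replicates 1 and 2) and 55 and 68 (62.5% and 77.3%) in the I-BET151 lists. Over all merged regions the shares were 47.9% and 22.9%, then 49.2% and 67.7%. In all, 21 were called in every list, 23.9% against 15.6% of all merged regions. Gained regions, held by both I-BET151 lists but neither DMSO list, numbered 19, or 21.6%, and the share over all merged regions was 17.0%. Lost regions, called in both DMSO lists only, numbered 3, or 3.41%, beside 2.37% of all regions. A further 24 regions (27.3%, beside 32.4% of all) were called in 1 I-BET151 list only, 9 (10.2%, beside 19.4%) in 1 DMSO list only and 12 (13.6%, beside 13.3%) in other mixtures. With every list reduced to the same number of peaks, 4 of 41 member regions were gained, 9.76% beside 9.19% of all regions. At a −log10 p of at least 10 it was 18 of 46 (39.1%, beside 23.3%), and with a region counted only where peaks of the list covered 50% of it, 28 of 88 (31.8%, beside 16.5%). Without I-BET151 replicate 1 the gained regions numbered 35 of 80 still called (43.8%, beside 43.7% of all). The lost regions numbered 12 without DMSO replicate 2, the shortest list (13.6%, beside 20.7%), and 6 without I-BET151 replicate 2 (8.33%, beside 5.75%).

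By role, the receptors held 9 gained regions (18.4%) and no lost ones among 49, and the ligands 4 (33.3%) and none among 12. The feedback genes held 6 gained (22.2%) and 3 lost regions (11.1%) among 27. Over all merged regions, 17.0% were gained and 2.37% lost. The 3 lost regions lay 1 each at SPRY1, SPRY2 and DUSP6. At a −log10 p of at least 10, 0 member regions were lost, beside 0.269% of all. Of the 19 gained regions, 11 lay inside a gene outside its promoter, 4 downstream, 3 upstream and 1 at a promoter, where the promoter is the stretch from 1000 bp before to 200 bp after the start site. Promoters made up 8 of the 21 that every list held.

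**Figure D1:**
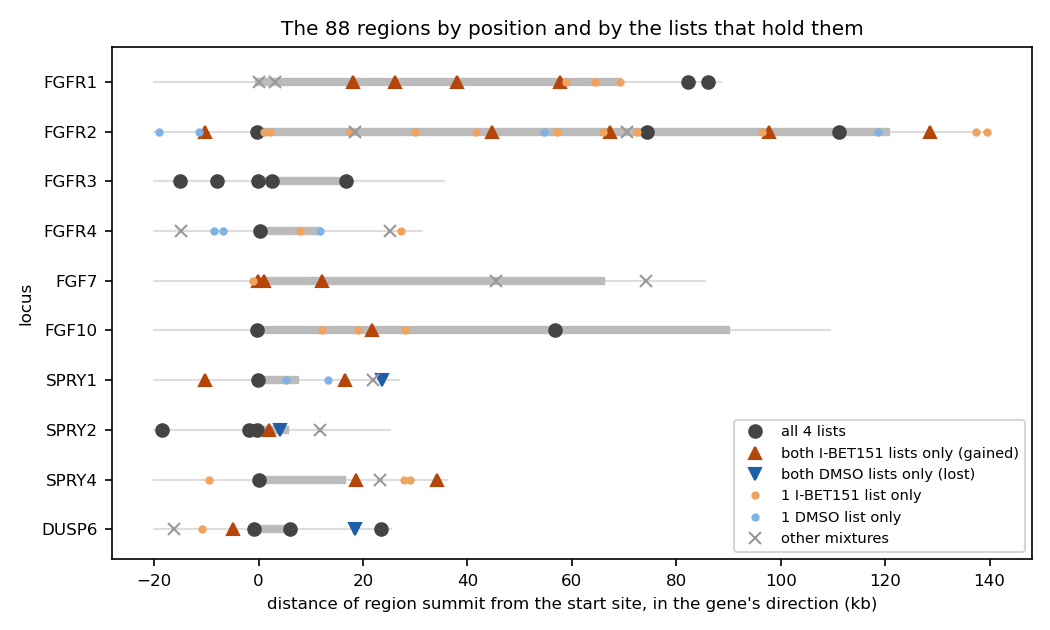
Position of the 88 regions relative to the start site of their gene (x axis, kb, in the direction of transcription) for the 10 loci (rows), where the thick bar is the gene and the thin line its 20 kb flanks. Symbols give the lists that hold each region, and the 3 lost regions lie at SPRY1, SPRY2 and DUSP6.

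The accessibility of a whole locus was summarized as its locus score, the mean percentile of its regions in a list. With I-BET151 the score stood higher at 8 genes and lower at SPRY2 and DUSP6. The median difference was 16.7 percentile points over the 10 genes and 10.6 over the 18865 protein-coding genes with a region, of which 82.9% were higher with I-BET151. Only FGFR3 passed the test (limma across all genes, Benjamini-Hochberg adjusted p = 0.029), whereas 2.15% of all genes were higher and 0.0954% lower past this threshold. No member locus was lower past it (limma), and at an unadjusted p under 0.05 there were 5 higher and 0 lower, beside 21.6% and 0.578% of all genes. Of the 10 genes, 6 scored higher with I-BET151 in replicate pair 1 as well as in pair 2, and the share of all genes that did so was not computed. An exact permutation test of 2 against 2 libraries (two-sided) cannot go below p = 0.33, its value for any locus whose groups do not overlap. How many of all genes separate in this way was not computed. The direction depended on the scaling: 10 of the 10 loci were higher with regions ranked by reads at the summit, but 5 with the lists reduced to equal numbers of peaks. Over all genes the median difference was 10.1 with ranks by reads at the summit and −0.232 with equal numbers of peaks. With locus scores centred on the median of each list, SPRY2 passed the threshold as lower (difference −24.2, adjusted p = 0.0496 by limma).

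**Figure D2:**
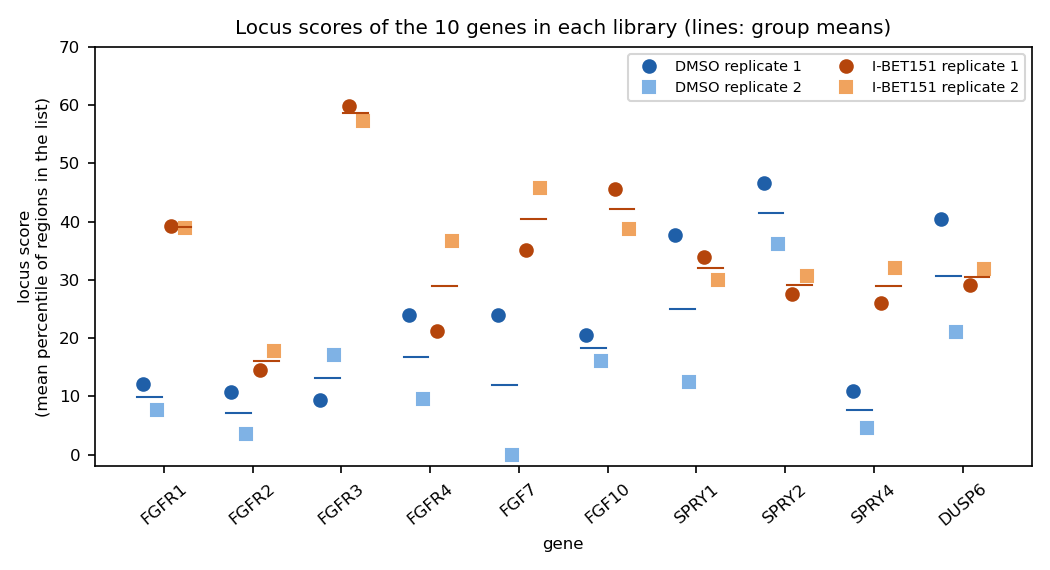
Locus score (y axis, mean percentile of the regions of the locus in the list) of the 10 genes (x axis) in each of the 4 libraries, with the group means as lines. The libraries of the groups stand farthest apart at FGFR3, and at SPRY2 both DMSO libraries lie above both I-BET151 libraries.

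FGFR3 encodes a receptor tyrosine kinase of the family and lies at chromosome 4, 1793293 to 1808872, plus strand (ENSG00000068078.20). Its locus score was 9.32 and 17.1 with DMSO and 59.9 and 57.4 with I-BET151. Both I-BET151 libraries lay above both DMSO libraries, with a difference of 45.4 (SE 7.96), larger than that of 98.6% of all genes. All 5 of its regions were called in every list, so the difference came from ranks and not from calls. No other locus of the 10 had every region called in all lists. The test was lost when any single library was left out, with differences of 41.5 to 49.3 and adjusted p of 0.22 without DMSO replicate 1, 0.34 without DMSO replicate 2, 0.29 without I-BET151 replicate 1 and 0.55 without I-BET151 replicate 2 (limma), and under those settings no gene of the genome passed. With equal numbers of peaks in every list the difference was 17.4 (adjusted p = 0.39), with flanks of 5 and 50 kb 30.3 (0.090) and 16.1 (0.33), and with regions ranked by reads at the summit 9.58 (0.65).

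The 3 FGFR3 regions outside the promoter and the gene body rose in rank, and these were the only ones of the 21 tested to do so. For this test the fold ranks of regions held by every list were turned into normal scores, in units of 1 SD of the list, and fitted with limma across 25627 regions. In all, 3.41% of the regions rose and 1.96% fell. The region 15.0 kb upstream (chr4:1777877-1778667), in no protein-coding gene, had fold enrichments of 2.34 and 2.77 with DMSO and 6.81 and 7.52 with I-BET151. Its normal score rose by 2.08 (SE 0.44, adjusted p = 0.019). The region 7.9 kb upstream (chr4:1785018-1785689), also outside protein-coding genes, had fold enrichments of 2.98 and 2.93, then 8.90 and 9.27, and its score rose by 1.85 (SE 0.38, adjusted p = 0.018). Beyond the 3′ end of the gene, the region at chr4:1809513-1810709 had fold enrichments of 2.91 and 2.83, then 10.8 and 8.79, and its score rose by 2.17 (SE 0.42, adjusted p = 0.013). In each of the 3 regions the groups did not overlap, and their percentiles ran from 0.14 to 9.44 in the DMSO lists and from 66.2 to 90.7 in the I-BET151 lists. At the other extreme, the region in intron 2 of FGFR3 (chr4:1795375-1796136) had fold enrichments of 3.45 and 3.70, then 4.56 and 5.25, and its score difference was −0.58 (SE 0.39, adjusted p = 0.37). The FGFR3 promoter (chr4:1792766-1793568) had fold enrichments of 2.28 and 3.48, then 4.87 and 4.61, with a score difference of 0.55 (SE 0.59, adjusted p = 0.60). Its percentile was 0.06 in DMSO replicate 1 and between 25.6 and 34.5 in the other lists.

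The ratios rest on the reads at the summit and on the local background, which were as follows. At 15.0 kb upstream, 28 and 30 reads stood at the summit over a background of 11.4 and 10.2 reads with DMSO, and 37 and 66 reads over 4.58 and 7.91 with I-BET151. At 7.9 kb upstream the summit held 30 and 28 reads over 9.40 and 8.91, then 38 and 56 over 3.38 and 5.15. At the 3′ region it held 28 and 23 reads over 8.98 and 7.48, then 39 and 59 over 2.72 and 5.83. The background was thus lower in both I-BET151 libraries at all 3 regions, as was the genome-wide background of these libraries. Per M reads of the library, the summit of the region 15.0 kb upstream was higher with I-BET151 by 2.04 and 2.33 on the log2 scale in replicate pairs 1 and 2, that of the region 7.9 kb upstream by 1.98 and 2.19 and that of the 3′ region by 2.11 and 2.55. The median over all regions called in every list was higher by 1.57 and 2.25, so the region 7.9 kb upstream lay under it in pair 2. When regions were ranked by reads at the summit in place of fold, an alternative chosen after seeing the data, none of the 3 passed (score differences of 0.28, 0.14 and 0.53, adjusted p of 0.58, 0.81 and 0.33 by limma). Ranked by −log10 of the p-value, the differences were 1.67, 1.25 and 1.68 with adjusted p of 0.14, 0.14 and 0.11. Without DMSO replicate 1 none of the 3 passed (adjusted p from 0.085 to 0.27), and without DMSO replicate 2 the region 7.9 kb upstream did not (adjusted p = 0.071).

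**Figure D3:**
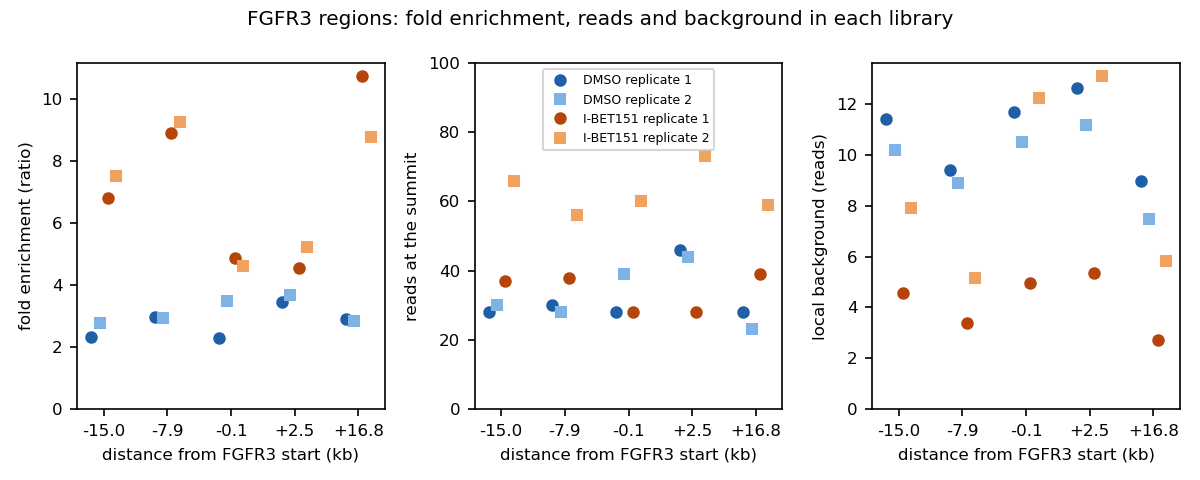
Fold enrichment (left, ratio), reads at the summit (middle) and local background (right, reads) of the 5 FGFR3 regions in each library, by distance from the start site (x axis, kb). At the outer regions the fold is higher and the background lower with I-BET151 than with DMSO, without overlap, whereas the promoter and intron regions (−0.1 and +2.5 kb) have the highest backgrounds.

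FGFR1, the receptor gene on chromosome 8 (ENSG00000077782.23), had the next largest difference. Its locus score was 12.1 and 7.65 with DMSO and 39.3 and 39.0 with I-BET151, a difference of 29.3 (SE 7.80) that did not pass (adjusted p = 0.091). It passed with regions ranked by −log10 of the p-value (34.0, adjusted p = 0.025 by limma) and turned to −2.21 with equal numbers of peaks in every list. The groups did not overlap. Of its 11 regions, 4 were gained, all inside the gene. The one with the highest lower fold of the pair, 57.8 kb from the start, had fold enrichments of 7.48 and 7.07 with I-BET151. Summits of 18 and 24 reads lay behind these values. The FGFR1 promoter was called in DMSO replicate 1 (fold 3.51) and in both I-BET151 lists (6.72 and 6.51) but not in DMSO replicate 2. Its first intron held a region 3.1 kb from the start that was called in all lists but I-BET151 replicate 1. At this locus, the regions held by every list were the promoters of neighbouring genes. That of LETM2, a mitochondrial membrane protein gene, had fold enrichments of 5.48 and 4.96, then 6.80 and 6.20. Its percentile was 84.4 and 69.9, then 66.4 and 51.6, which did not pass (score difference −1.09, SE 0.40, adjusted p = 0.11). The promoter of NSD3, a histone methyltransferase gene, had fold enrichments of 2.88 and 3.01, then 5.67 and 6.67 (score difference 0.88, SE 0.39, adjusted p = 0.17).

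FGFR2, the receptor for FGF7 and FGF10 in epithelia (chromosome 10, 121478332 to 121598458, minus strand, ENSG00000066468.24), had the most regions, 25, over the longest gene. Its locus score was among the lowest, at 10.8 and 3.61 with DMSO and 14.5 and 17.8 with I-BET151. The difference of 8.94 (SE 7.95, adjusted p = 0.51) lay under the median of all genes. Both I-BET151 libraries were above both DMSO libraries. The promoter (chr10:121598339-121598935) had fold enrichments of 3.26 and 3.96 with DMSO and 6.79 and 9.05 with I-BET151. Its percentile was 20.4 and 46.1, then 66.2 and 78.5, and its score difference was 0.64 (SE 0.42, adjusted p = 0.36). The strongest region of the locus by mean percentile was in intron 6 (chr10:121523564-121524189), with fold enrichments of 5.24, 3.01, 6.46 and 7.30 in the order of the libraries, DMSO first. Its percentiles with DMSO, 81.7 and 11.1, lay on either side of those with I-BET151, 62.1 and 64.5 (score difference 0.05, SE 0.48). A region in intron 15 (chr10:121487089-121487415) had fold enrichments of 3.07 and 3.6, then 3.64 and 3.58. Its percentile was 12.7 and 32.9, then 5.43 and 8.25 (score difference −1.18, SE 0.42, adjusted p = 0.099). Behind it stood 14 and 17 reads with DMSO but 6 and 8 with I-BET151, so its ratio rests on few reads. Gained regions numbered 5, of which 3 were intronic, 1 lay 10.4 kb upstream and 1 downstream. The strongest of them, in intron 11 (chr10:121500303-121501268), had fold enrichments of 6.04 and 5.38 with I-BET151. Another 11 regions were called in a single I-BET151 list and 4 in a single DMSO list. In all, 15 of the 25 (60%) were thus seen in 1 library only, beside 51.8% of all merged regions.

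FGFR4 (chromosome 5, 177086905 to 177098144, plus strand, ENSG00000160867.15), the receptor through which the liver reads FGF19, had no gained and no lost region among its 8. Its promoter (chr5:177086308-177087618) was the strongest region by mean percentile among the 10 loci. It had fold enrichments of 5.85 and 5.40, then 9.89 and 9.64, with 62 to 148 reads at the summit. Its percentile was 87.2 and 76.7 with DMSO and 87.4 and 82.3 with I-BET151, so the groups overlapped in rank (score difference −0.26, SE 0.39, adjusted p = 0.72). The locus score was 24 and 9.59, then 21.2 and 36.7, a difference of 12.2 (SE 9.21, adjusted p = 0.44) in which the replicate pairs differed in sign. With 1 library left out it was 19.4 and 4.95 (without DMSO replicates 1 and 2) or 19.9 and 4.42 (without I-BET151 replicates 1 and 2). A region 14.9 kb upstream (chr5:177071732-177072426), inside ZNF346, was called in DMSO replicate 1 (fold 3.65) and in both I-BET151 lists (8.85 and 8.65).

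Among the ligands, FGF7 (chromosome 15, 49423237 to 49488775, plus strand, ENSG00000140285.12) had 6 regions. Of these, 3 were gained, the promoter among them, and 1 was called in a single I-BET151 list. Over all merged regions the shares of these patterns were 17.0% and 32.4%. FGF7 is a mesenchymal growth factor, and all 6 regions of its locus lie within FAM227B, a gene that overlaps it. Its locus score was 23.9 in DMSO replicate 1, 0 in DMSO replicate 2, where no region was called, and 35.2 and 45.7 with I-BET151. The groups did not overlap, and the difference of 28.5 (SE 9.91) did not pass (adjusted p = 0.15). Without DMSO replicate 2 it was 16.5, and at a −log10 p of at least 10 it was 57.0. The promoter was gained, as were 7.04% of the promoters of all 20007 genes. Its region (chr15:49423073-49423451) had fold enrichments of 3.90 and 4.40 on summits of 10 and 15 reads, with percentiles of 9.32 and 23.3. Next to it, a region over exon 2 (chr15:49423992-49424500) had fold enrichments of 5.17 and 4.53, and one in intron 2 (chr15:49435250-49435575) of 5.10 and 5.17. These gained regions held 9 to 16 reads at the summit. The strongest region, 45.5 kb into the gene (chr15:49468476-49468998), had a fold of 4.40 in DMSO replicate 1 and of 9.85 and 11.4 with I-BET151, and was not called in DMSO replicate 2.

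FGF10, the mesenchymal growth factor of the pancreatic bud (chromosome 5, 44300247 to 44389706, minus strand, ENSG00000070193.5), had a locus score of 20.5 and 16.2 with DMSO and 45.6 and 38.8 with I-BET151. The groups did not overlap, and the difference of 23.8 (SE 7.96) did not pass (adjusted p = 0.14). With equal numbers of peaks in every list it was 0.866. Its promoter (chr5:44388554-44390011), shared with FGF10-AS1, had fold enrichments of 3.54 and 3.98, then 7.50 and 6.19 (score difference 0.09, SE 0.44, adjusted p = 0.93). The strongest region, in intron 1 (chr5:44332448-44332851), matched the CTCF motif and had fold enrichments of 6.21 and 4.09, then 7.89 and 9.80 (score difference −0.18, SE 0.41, adjusted p = 0.82). The 1 gained region (chr5:44367265-44367787), also in intron 1, had fold enrichments of 6.52 and 8.08. Some promoters of mesenchymal genes were also called in both I-BET151 lists only, as were 7.04% of the promoters of all genes. Of 6 mesenchymal markers, 1 promoter was called in each DMSO list and 3 in each I-BET151 list. TWIST1 was called in all lists and PRRX1 and PDGFRB in both I-BET151 lists only, while COL1A1, COL3A1 and THY1 were called in no list. The methods name CF1 feeder cells for the stem cells and feeder cells of no stated kind for the expandable progenitors. They do not say whether the 7-day cultures had feeder cells, and the part of other cells in the ligand loci was not tested.

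SPRY1 (chromosome 4, 123396795 to 123403760, plus strand, ENSG00000164056.11), a Sprouty protein that restrains receptor signaling upstream of ERK, had a locus score of 37.7 and 12.4 with DMSO and 34.0 and 30.1 with I-BET151. The groups overlapped, and the difference was 6.97 (SE 9.83, adjusted p = 0.68). Its promoter (chr4:123396558-123397703) had nearly level fold enrichments of 6.25 and 4.70, then 6.27 and 6.20, and its percentile was 90.1 and 65.2, then 60.4 and 51.5. The score difference was −1.29 (SE 0.40), the lowest of the 21 regions tested, and did not pass (adjusted p = 0.068). The lost region, 23.6 kb from the start (chr4:123420269-123420551), had fold enrichments of 2.79 and 3.31 with DMSO on 13 and 17 reads. Both gained regions were stronger than the lost region, as the one 10.2 kb upstream (chr4:123386326-123386924) had fold enrichments of 5.72 and 6.36.

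SPRY2 (chromosome 13, 80335976 to 80341126, minus strand, ENSG00000136158.12), another Sprouty inhibitor, was the one locus of the 10 with both I-BET151 libraries under both DMSO libraries. Its score was 46.6 and 36.2, then 27.6 and 30.6, a difference of −12.3 (SE 8.14, adjusted p = 0.38) that turned positive with flanks of 50 kb (1.72) and with regions ranked by reads at the summit (5.01). It was −31.2 with equal numbers of peaks, −2.60 at a −log10 p of at least 10, −2.97 with flanks of 5 kb, −4.78 with 50% cover, −0.90 with ranks by −log10 of the p-value and −7.12 without DMSO replicate 1. Only 3.67% of all genes had a lower difference. The lost region lay over exon 2, in the coding sequence (chr13:80336932-80337672), with fold enrichments of 2.97 and 2.63 on 24 and 23 reads. A gained region in intron 1 (chr13:80338962-80339316) was also weak, with fold enrichments of 3.19 and 2.31 on 31 and 40 reads. These stood over backgrounds of 9.04 and 16.7, with percentiles of 0.86 and 0.05 in the I-BET151 lists. The promoter (chr13:80341033-80341810) was the strongest region of the locus, with fold enrichments of 4.93 and 5.24, then 7.26 and 8.60. Its percentile was 77.8 and 74.2, then 70.2 and 75.4, so the groups overlapped (score difference −0.51, SE 0.38, adjusted p = 0.43). A region 18.4 kb upstream (chr13:80359336-80360274) had fold enrichments of 4.87 and 4.65, then 6.43 and 5.51 (score difference −1.03, SE 0.41, adjusted p = 0.14).

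SPRY4 (chromosome 5, 142310427 to 142326455, minus strand, ENSG00000187678.10) had a difference opposite in sign to that of SPRY2. Its locus score was 10.9 and 4.59 with DMSO and 26.0 and 32.1 with I-BET151, a difference of 21.3 (SE 8.0) that did not pass (adjusted p = 0.17). The groups did not overlap. The promoter (chr5:142324721-142326596) had fold enrichments of 3.31 and 3.21, then 5.96 and 5.72, and its percentile was 22.4 and 18.7, then 55.5 and 45.0. Both I-BET151 libraries thus ranked it above both DMSO libraries, and the score difference among shared regions was 0.28 (SE 0.40, adjusted p = 0.70). With flanks of 5 kb in place of 20 kb the locus score of SPRY4 passed (difference 48.4, adjusted p = 0.036 by limma), whereas the difference was 9.43 with flanks of 50 kb and 0.926 with equal numbers of peaks in every list. Both gained regions lay downstream of the gene, and the stronger (chr5:142306024-142306478) had fold enrichments of 6.33 and 8.34.

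DUSP6 (chromosome 12, 89347235 to 89352501, minus strand, ENSG00000139318.8), the phosphatase that acts on ERK in the cytoplasm, had a locus score of 40.5 and 21 with DMSO and 29.1 and 31.8 with I-BET151. The I-BET151 libraries lay between the DMSO libraries (difference −0.31, SE 9.04, adjusted p = 0.99). The promoter region (chr12:89352172-89354420) carried 54 and 67 reads at the summit with DMSO and 74 and 131 with I-BET151. Its fold enrichments were 4.50 and 5.25, then 5.56 and 5.49, and its percentile was 69.2 and 74.3, then 48.5 and 40.5. The score difference of −1.26 (SE 0.41) did not pass (adjusted p = 0.082). The lost region, 18.4 kb from the start (chr12:89333925-89334356), was the strongest of the 3 lost regions, with fold enrichments of 5.41 and 3.83 with DMSO. The gained region, 5.0 kb upstream (chr12:89357318-89357665), had fold enrichments of 3.11 and 3.09 and percentiles of 0.36 and 2.02.

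**Figure D4:**
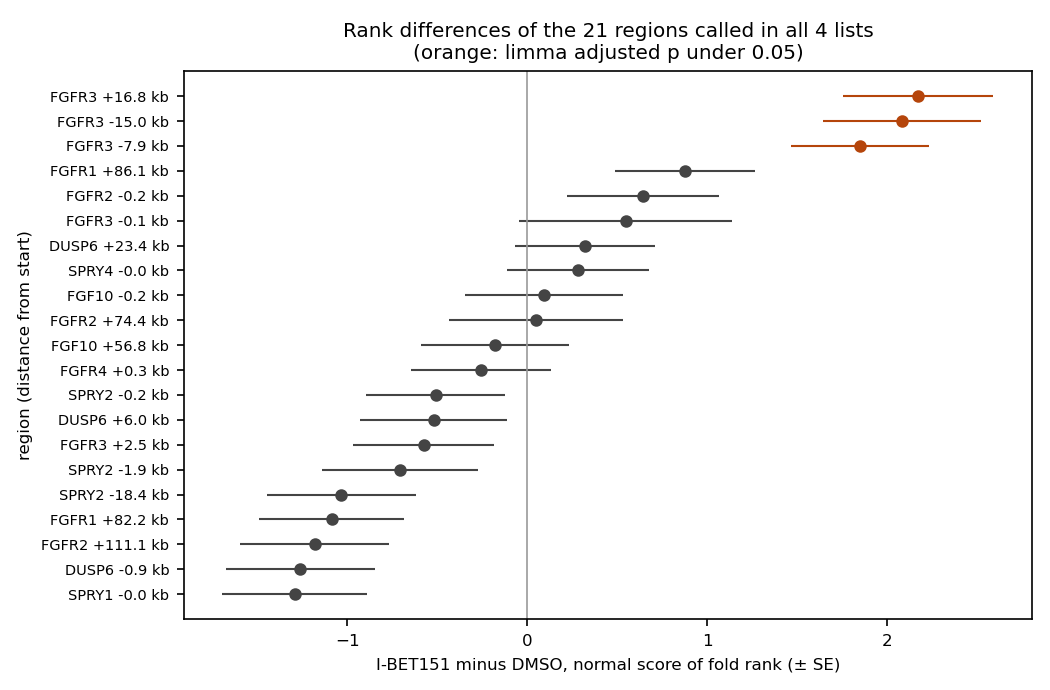
Difference in the normal score of the fold rank (x axis, I-BET151 minus DMSO, with SE bars from limma) for the 21 member regions called in all 4 lists (rows, by distance from the start site). The 3 regions in orange, all at FGFR3, passed the threshold, and SPRY1 and DUSP6 promoters stand lowest.

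Of the 21 regions tested, 10 were higher and 11 lower in rank with I-BET151, and the median difference was −0.18 against −0.03 over all 25627. Of all 25627, 12407 were higher and 13220 lower. Among the receptors, 7 of 11 were higher, with a median of 0.55, but these include the 5 FGFR3 regions and the promoters of NSD3 and LETM2. Among the feedback genes 2 of 8 were higher, with a median of −0.61. No member region fell at the adjusted threshold (limma). At an unadjusted p under 0.05 (limma), 9 of the 21 differed, 5 of them lower. Of all 25627, 6372 differed, 3048 of them lower. With median-centred log2 fold in place of ranks, 2 regions rose and 3 fell, beside 597 and 1109 of all 25627.

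**Figure D5:**
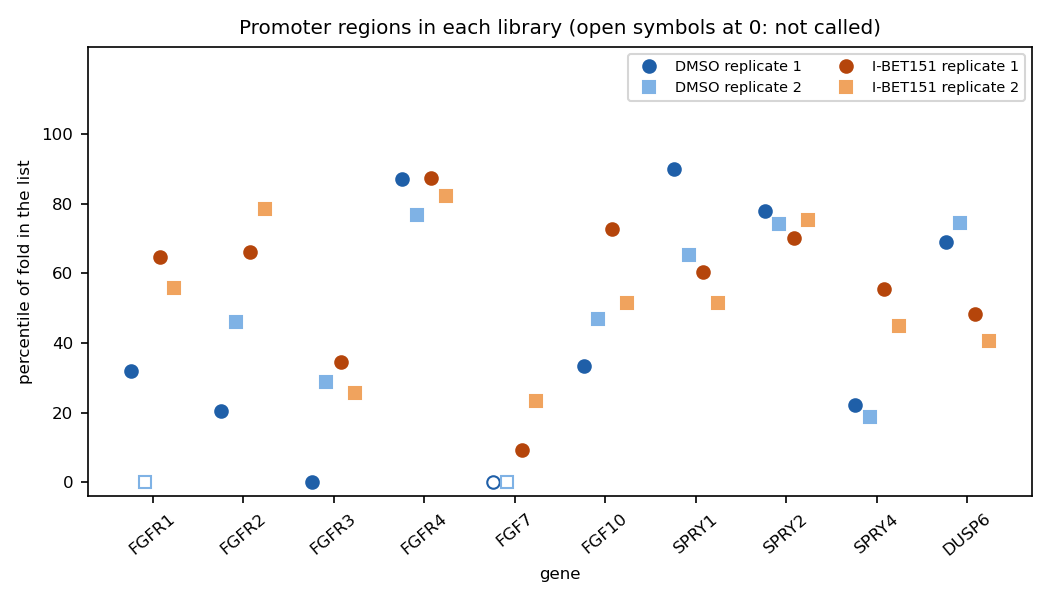
Percentile by fold enrichment (y axis) of the promoter region of each gene (x axis) in the 4 lists, with open symbols at 0 where the promoter was not called. The SPRY1 and DUSP6 promoters stand lower in both I-BET151 lists than in both DMSO lists, and the FGFR2, FGF10 and SPRY4 promoters stand higher.

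At the promoters, 8 of the 10 genes were called in all 4 lists, beside 52.8% of all 20007 genes. The exceptions were FGFR1 and FGF7, described above. In rank, the promoters of FGFR1, FGFR2, FGF7, FGF10 and SPRY4 stood higher in both I-BET151 lists than in both DMSO lists. The SPRY1 and DUSP6 promoters stood lower, and those of FGFR3, FGFR4 and SPRY2 overlapped between the groups. The share of all promoters whose groups separate in this way was not computed, so no trait of these genes is read from it. None of the promoters tested passed the limma threshold in either direction.

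The other genes of the pathway showed no call. All 67 genes of a list of further ligands, receptor partners, cascade members, inhibitors and target transcription factors had a region, and 0 were higher or lower past the threshold (limma). At an unadjusted p under 0.05, 15 were higher and 1 lower, and 4176 of the 18865 genes differed in either direction. Higher scores with I-BET151 were found for 62 and lower scores for 5, where 82.9% of all genes were higher. The median difference was 11.5 beside 10.6 over all genes. The 20 ligands had a median difference of 19.2, the 11 receptor partners, which include the glypicans, of 14.3, the 12 inhibitors of 11.2, the 17 cascade members of 9.10 and the 7 target transcription factors of 5.83. FGF16 had the largest difference, from 29.3 and 0 with DMSO to 36.3 and 58.6 with I-BET151 (32.8, SE 11.7, adjusted p = 0.16). FGF4, a ligand of the early embryo, had the lowest, from 32.9 and 10.7 to 0.30 and 0 (−21.7, SE 9.36, adjusted p = 0.22), and was not called at all in I-BET151 replicate 2. The promoters of 41 of the 67 genes were called in all lists, among them all 7 target transcription factors and 16 of the 17 cascade members. Promoters of 7 genes were gained, namely those of FGF5, FGF22, FGF23, GPC1, GPC4, SDC4 and IL17RD. Of the promoters of all 20007 genes, 52.8% were called in all lists and 7.04% were gained.

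The 88 windows were searched on both strands for 10 motifs, none of which contains another, and the shares are set beside those of all 164301 windows of the same length. The AP-1 letters TGANTCA, the site of the FOS and JUN factors, were found in 8 windows (9.09%, beside 11% of all). The ONECUT letters TATNGAT, for a factor of the early pancreas, were also found in 8 windows (9.09%, beside 6.50%). The FOXA letters TGTTTAC, read by factors of the gut endoderm, were found in 7 windows (7.95%, beside 4.57%). The PDX1 letters ATNAATCA, for the homeobox factor of the pancreatic bud, were found in 6 windows (6.82%, beside 4.37%). The SOX letters CCTTTGT, for the SOX9 family, were likewise found in 6 windows (6.82%, beside 5.37%). The TEAD letters GGAATGT, read by the partners of YAP, were found in 5 windows (5.68%, beside 4.78%). The RBPJ letters GTGGGAA, for the DNA-binding factor of the Notch pathway, were found in 5 windows (5.68%, beside 4.86%). The GATA letters, written AGATAAG in the search, were found in 2 windows (2.27%, beside 5.17%). The consensus of CTCF matched in 3 windows (3.41%, beside 1.86%), at FGFR4, FGF10 and SPRY2. No window held the ETS letters CCGGAAGT, which 0.593% of all windows held. Of the 19 gained windows, 4 held the PDX1 letters, 3 SOX and 2 each AP-1, ONECUT and FOXA. The GATA and TEAD letters stood in 1 each, and CTCF, ETS and RBPJ in none. The shares over all gained windows of the genome were not computed, so no trait is read from these counts. The GC content of the member windows had a median of 50.0%, beside 47.8% over all regions, and the 3 FGFR3 windows whose rank rose had 67.2% to 68.2%, less than the 87.6% of the FGFR3 promoter.

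Among the genes whose 4 locus scores were most like those of FGFR3, by the summed absolute difference over the libraries among 12955 genes with a similar number of regions, were NTS and VTA1, with distances of 12.4 and 13.6 percentile points. For SPRY2 the closest of 14083 genes were MRPL9, ENSG00000289282 and E2F6, at 3.45, 4.54 and 4.62 points.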

How the data were processed

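ATAC-seq was performed on 4 libraries of MEL1-derived progenitors, 2 per medium. Per the study's methods, the authors used Bowtie2 (v2.2.5) for alignment to hg38, discarded duplicate and mitochondrial reads, and ran MACS2 (v2.1.2) on each library alone, with no control. The deposited lists give per peak a fold enrichment (a ratio), the −log10 p-value and the −log10 q-value. The methods state a p-value of 1e-05, whereas the lists end at a q-value of 0.05. Minimum peak lengths were 200 bp in the replicate 1 lists, 233 bp in DMSO replicate 2 and 256 bp in I-BET151 replicate 2, so the read extension, to which MACS2 sets this length, may have differed between lists. Reads at the summit and the background were solved from fold and p-value, which returned whole reads (within 0.02) for at least 99.9% of the peaks of each list. Depth was taken from the genome-wide background and the default human genome size of MACS2, with the minimum peak length taken as the read extension.

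Autosomal, X and Y peaks were merged, and regions were assigned to GENCODE release 44 genes with 20 kb flanks. Ranks (normal scores over regions called in all lists) and locus scores were fitted over all regions and all protein-coding genes by lmFit and eBayes (limma 3.58.1, R 4.3.3, two-sided, Benjamini-Hochberg, threshold 0.05), which was tested on simulated data. Other steps used pandas 2.3.3, scipy 1.17.1 and numpy 2.4.6 in Python 3.11.15. Named regions were, by rule, the promoters, the strongest region of each locus, the strongest gained and lost region of each gene and every region past the threshold. Other regions were named after their values were seen, and 1 gene that the rule on likeness to FGFR3 names is not reported here. The members, the pathway, marker and motif lists and the tests were chosen with earlier results of these data known. The alternatives, 16 in all, are given in the closing section, and the study's other sequencing experiments were not used here. Counting error is not part of the SE of 2 libraries per group.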

Additional observations from a re-analysis of the deposited data

How the results depend on the processing

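The number of gained regions (19) was 18 at a −log10 p of at least 5 or 10, 4 with equal numbers of peaks, 28 with 50% cover, 14 and 27 with flanks of 5 and 50 kb, and 19 to 35 when 1 library was left out. The lost regions (3) numbered 0 at a −log10 p of at least 10, 1 with 5 kb and 6 with 50 kb flanks, and 3 to 12 with 1 library left out. The risen regions (3) numbered 0 at a −log10 p of at least 10, with equal numbers of peaks, with 50% cover, with ranks by −log10 p and with ranks by reads at the summit, 1 with 5 kb flanks, and 0 to 3 with 1 library left out. The fallen regions (0) numbered 2 of 7 tested at a −log10 p of at least 10 and 4 of 10 with equal numbers of peaks. They numbered 3 of 34 with 50 kb flanks and 3 of 21 with median-centred log2 fold. Over all regions, 594 of 13209, 725 of 18505, 503 of 25627 and 1109 of 25627 fell under these settings. With 50% cover 8 member regions were tested and with 5 kb flanks 15, so fewer regions could rise or fall there. The loci higher past the threshold (1) numbered 0 at a −log10 p of at least 10, with equal numbers of peaks, with 50% cover, with 50 kb flanks, with ranks by reads at the summit and without any 1 library (0 to 0), and 2 with ranks by −log10 p. With 5 kb flanks the 1 higher locus was SPRY4 and not FGFR3. The loci lower past it (0) numbered 1 with centred locus scores. Of all 18865 genes, 256 were lower with centred scores and 1018 higher with ranks by −log10 p. The differences with 1 library left out assume that the lone library of a group varies like the others.

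Locus score differences changed sign at DUSP6 (−0.307), to 0.271 and 2.91 at a −log10 p of at least 5 and 10, 7.92 with 50% cover, 0.788 with 50 kb flanks, 17.6 with ranks by −log10 p, 26.0 with ranks by reads at the summit, and between −10.1 and 9.48 with 1 library left out. With equal numbers of peaks the differences were −2.21 at FGFR1, −4.62 at FGFR2 and −14.1 at SPRY1. SPRY1 also came to −22.3 with 5 kb flanks, −4.93 with centred scores and between −5.65 and 19.6 with 1 library left out. FGFR2 came to −2.96 with centred scores, and SPRY2 to 1.72 with 50 kb flanks and 5.01 with ranks by reads at the summit. The cause was not tested. With the replicate number as a block (replicate block), 3 regions rose, 0 fell, 1 locus was higher and 0 lower, as without it. The replicate deviations correlated at r = −0.14, and with the numbers crossed between groups, chosen after seeing the data, 3 regions rose, 3 fell and 5 loci were higher. Crossing the numbers also raised the calls over the genome. Of all 25627 regions 1985 rose and 1567 fell, and 3249 of all 18865 loci were higher, beside 406 without it. Ranks by reads at the summit were likewise added after seeing the data. Peaks of 6 to 30 reads leave a counting error that 2 libraries per group do not show.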
